A study of Mus musculus with 91 samples.

Results

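The 9 genes described here are 4 S100 genes (S100a4, S100a6, S100a10 and S100a11), the annexin genes Anxa1 and Anxa2, the galectin genes Lgals1 and Lgals3, and Vim, which encodes vimentin. They are 9 of the 15247 genes tested in all 8 count tables of the series, each of which had between 16629 and 18624 genes tested. The genes were chosen by name with earlier results of these data known, and the measure behind the choice was the level in each treated group against the PBS group of the same table. Those differences from PBS are therefore given as a description, with the fitted value and its error, and support nothing by themselves. The choice did not directly use the fusion protein against IL-2 at 4 time points or repeated against single injection, and these contrasts were tested. They share the treated libraries with the differences from PBS, so they are not independent of the choice.

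The RNA came from splenic regulatory T cells (Tregs) of RFP-FoxP3 reporter mice on the C57/BL6 background, in which Foxp3-expressing cells carry a red fluorescent protein and can be sorted. Mice received mouse IL-2 (mIL-2), a fusion of mouse IL-2 with its receptor chain CD25 (mIL-2/CD25, called FP here) or PBS. Total RNA was sequenced after depletion of ribosomal RNA. The labels give 1 protocol, 20 µg of FP or 100 µL of PBS and 1.5 h, for every sample, and the titles give the times used here.

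Groups of 4 libraries each for PBS, IL-2 and FP were taken at 1.5 h and at 16 h. At 4 h there were 3 PBS, 4 IL-2 and 3 FP libraries, at 72 h 3 PBS, 3 IL-2 and 4 FP libraries, and at 168 h 3 PBS and 4 FP libraries. A table titled in vitro, 1.5 h, had 3 PBS and 3 IL-2 libraries, and a table titled high dose had 3 PBS and 3 IL-2 libraries whose dose and time the labels used here do not give. In the restimulation table, also titled 1.5 h, 3 libraries came from mice given PBS and then PBS, 3 from mice given PBS and then FP (single injection) and 4 from mice given FP and then FP (repeated injection). Another 2 libraries of the 4 h table had titles that disagreed with their injected molecule, and they were left out. The names of their count columns carry the treatment of the titles. The labels do not say that libraries of a group are separate animals, and the p-values then cover the spread among these libraries, which may be technical. Spleen cells sorted on a Foxp3 reporter can still hold other cells, and in bulk RNA fewer cells of a type and less RNA per cell cannot be told apart.

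S100 proteins are small calcium sensors that bind and alter other proteins. S100A10 forms a complex with annexin A2 at the plasma membrane, S100A11 binds annexin A1, and S100A4 binds non-muscle myosin, while annexins attach to phospholipid membranes when calcium is present. Galectins bind beta-galactosides on cell-surface glycoproteins, galectin-1 (Lgals1) is a secreted suppressive molecule of Tregs, and vimentin is the main intermediate filament of lymphocytes and mesenchymal cells. In T cells these genes are known as markers of activated, memory and effector states and of cells that move into tissue.

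The 4 S100 genes lie on chromosome 3 of GRCm38, all on the plus strand. S100a4 (ENSMUSG00000001020, chr3:90603771-90606045) and S100a6 (ENSMUSG00000001025, chr3:90612882-90624181) are neighbours within the S100 gene cluster, with S100a5 annotated between them. S100a11 (ENSMUSG00000027907, chr3:93520488-93526287) and S100a10 (ENSMUSG00000041959, chr3:93555080-93564643) form a second pair farther along. The remaining genes are scattered. Anxa2 (ENSMUSG00000032231) spans chr9:69453620-69491795, Lgals1 (ENSMUSG00000068220) chr15:78926725-78930465, Lgals3 (ENSMUSG00000050335) chr14:47367751-47386160 and Vim (ENSMUSG00000026728) chr2:13573927-13582826, all on the plus strand, and Anxa1 (ENSMUSG00000024659) spans chr19:20373428-20390944 on the minus strand. S100a4 shares 302 of its 584 exon bases (51.7%) with a predicted gene on the same strand, Gm42674, which has no row in any of the tables, so the level of S100a4 is uncertain where reads could belong to either. Anxa2 shares 98 of 3731 exon bases (2.63%) with the antisense gene Gm16144, and the labels do not state whether counting used strand.

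The stretches just before the start sites of S100a6 and S100a4, neighbours that reached similar levels above PBS at 168 h, and of S100a11 and Anxa2, whose stretches hold the AP-1 letters, are shown because these genes moved together at the later times. They are RefSeq windows of GRCm38.p6 on the plus strand, 5′ to 3′, limited to bases outside annotated exons, and capitals mark matches to the motifs named below. Their positions are chr3:90612644-90612881 for S100a6, chr3:90603520-90603769 for S100a4, chr3:93520246-93520487 for S100a11 and chr9:69453433-69453619 for Anxa2.
S100a6: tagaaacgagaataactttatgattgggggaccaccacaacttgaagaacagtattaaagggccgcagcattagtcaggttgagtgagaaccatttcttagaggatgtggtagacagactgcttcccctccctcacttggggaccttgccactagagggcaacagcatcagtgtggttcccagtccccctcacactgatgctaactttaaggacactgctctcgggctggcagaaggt
S100a4: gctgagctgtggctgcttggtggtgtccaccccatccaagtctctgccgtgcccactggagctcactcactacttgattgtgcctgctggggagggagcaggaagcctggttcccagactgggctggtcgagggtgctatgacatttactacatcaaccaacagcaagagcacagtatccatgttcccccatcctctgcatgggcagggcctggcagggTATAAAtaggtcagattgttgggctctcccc
S100a11: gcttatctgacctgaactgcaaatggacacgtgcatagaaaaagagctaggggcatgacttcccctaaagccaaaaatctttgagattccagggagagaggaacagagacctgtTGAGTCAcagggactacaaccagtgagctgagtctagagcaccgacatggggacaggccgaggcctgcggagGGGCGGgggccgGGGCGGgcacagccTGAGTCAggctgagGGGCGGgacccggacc
Anxa2: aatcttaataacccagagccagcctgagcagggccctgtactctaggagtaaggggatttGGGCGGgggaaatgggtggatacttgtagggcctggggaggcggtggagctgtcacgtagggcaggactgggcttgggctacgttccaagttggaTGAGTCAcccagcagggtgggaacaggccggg

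The RefSeq table held windows for 7 of the 9 genes, and the 250 bases before each start were searched on both strands, beside the same search in all 32851 windows. The AP-1 letters TGANTCA stood in 6.75% of all windows and in those of S100a11, with copies 136 and 38 bases before the start, and Anxa2, with a copy 95 bases before it. The GC box GGGCGG stood in 32.7% of windows, and among the genes in those of S100a11 (3 copies), Anxa2 (3 copies, 1 of them in the printed stretch) and Lgals3 (1 copy). TATAAA stood in 12.4% of windows, and among the genes in those of S100a4 and Vim, 31 and 32 bases before the start, Anxa1, 32 bases before it, and Anxa2, 17 bases before it and past the printed stretch. The STAT letters TTCNNNGAA stood in 7.02% of windows and in none of the 7. None of these 4 motifs was found in the S100a6 window. These are matches of letters, not sites shown to be bound.

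Library totals ran from 12212262 to 46108114 counts, and the 1.5 h table was the shallowest (at most 15325053). T cell and Treg markers (Cd3e, Cd3d, Cd4, Foxp3, Il2ra, Ikzf2 and Ctla4) summed to group means between 3213 and 5796 CPM (the count relative to library size, scaled by TMM) in every group, so the labelled cell type was present throughout. The neutrophil markers measured summed to at most 9.32 CPM on average in any group. Macrophage and monocyte markers were measurable in every group and differed between groups. Their summed level fell from 726 ± 304 CPM (SD, n = 3) in PBS libraries to 89.6 ± 36.7 (n = 4) in FP libraries at 72 h, where 14 of 16 markers passed the test as lower (13.1% of all genes). At 168 h the sums were 374 ± 54.5 (n = 3) and 63.4 ± 11.7 (n = 4), and 12 of 15 passed as lower (1.01% of all genes). Macrophages express several of the 9 genes, Lgals3 among them.

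In the 26 PBS libraries, compared per kilobase of exon because longer transcripts collect more counts, S100a10 had the highest level of the 9 genes, with a median of 120.2 CPM per kb (range 69.6 to 197.9). Vim (55.8), Lgals1 (48.9) and S100a11 (46.1) followed in median CPM per kb, and their ranges over libraries overlapped. S100a6 (16.7) and S100a4 (15.3) formed the next pair, also with overlapping ranges, and below them Anxa2 had 5.51 and Lgals3 3.341 CPM per kb. Anxa1 was barely detected at 0.392 CPM per kb, with as few as 10 counts in a library, which limits what can be said of it. These medians pool libraries of 8 separately scaled tables.

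**Figure D1:**
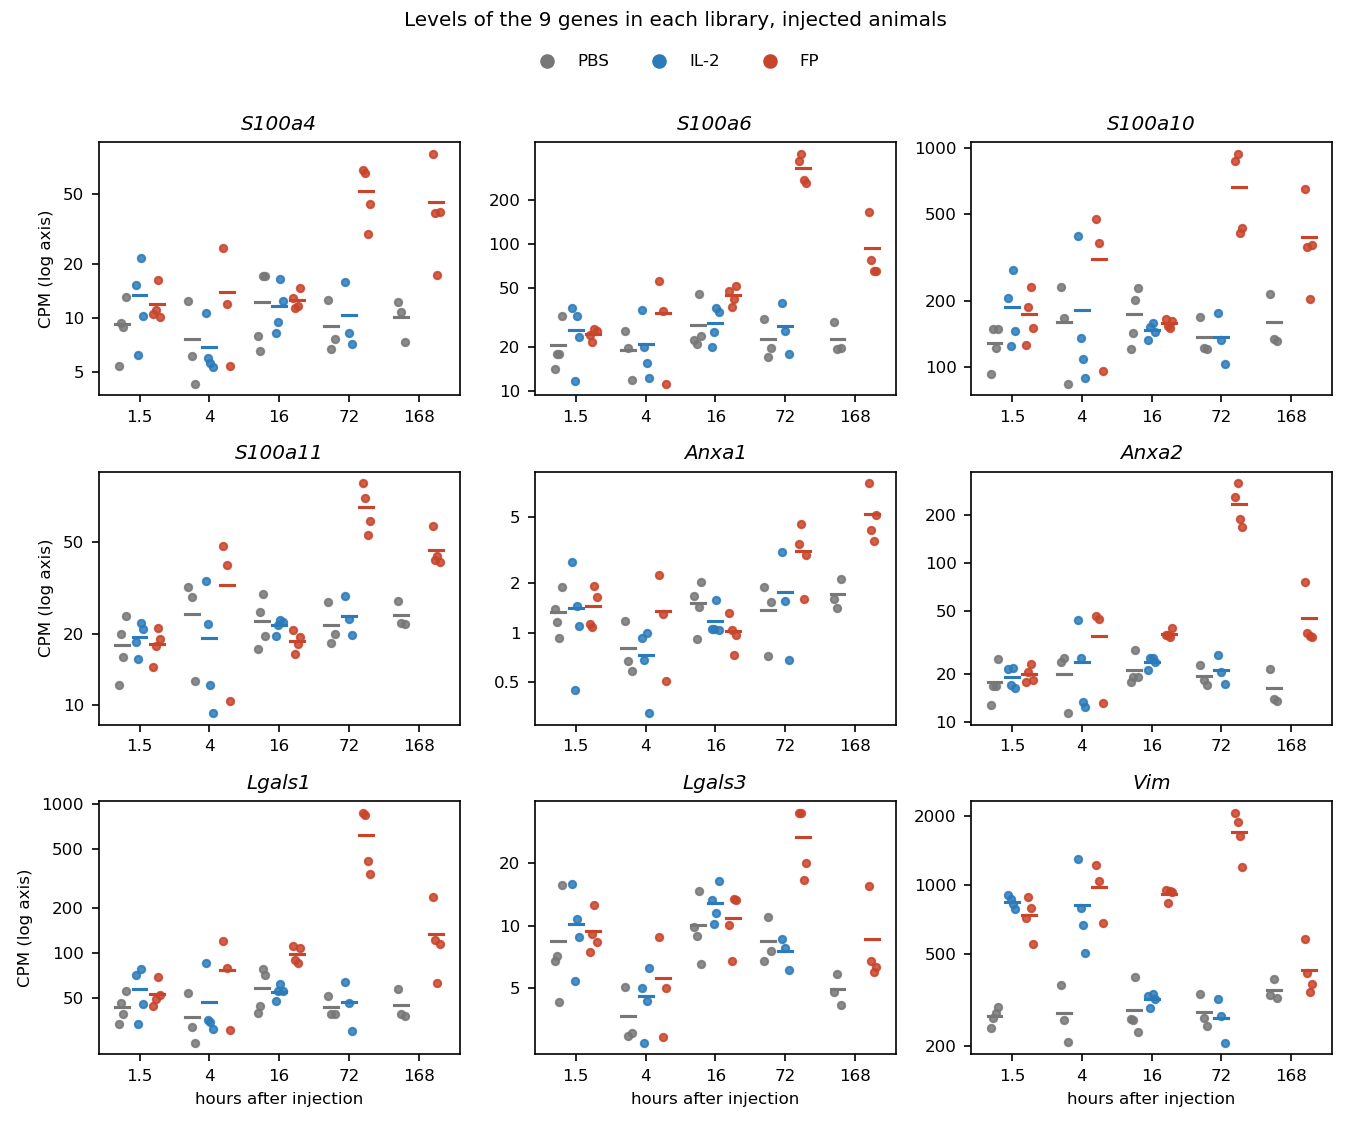
Level of each of the 9 genes in every library of injected mice, in CPM on a log axis, against hours after injection. Points are libraries, short bars are group means, and colours mark PBS, IL-2 and FP; Vim was already above PBS at 1.5 h, while S100a6, Lgals1 and Anxa2 stood farthest from PBS in the FP libraries at 72 h.

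Vim was the early gene of the group. At 1.5 h after injection Vim measured 240, 264, 276 and 296 CPM in the PBS libraries, 900, 869, 830 and 788 in the IL-2 libraries, and 715, 888, 797 and 556 in the FP libraries. Every treated library lay above every PBS library. The fitted log2 difference from PBS was 1.65 ± 0.12 (SE) for IL-2 (edgeR quasi-likelihood test, Benjamini-Hochberg adjusted p = 5.37e-07) and 1.46 ± 0.12 for FP (adjusted p = 3.81e-06). No other of the 9 genes was called at 1.5 h, where called means an adjusted p under 0.01. Their log2 differences from PBS lay between 0.06 (Anxa1) and 0.55 (S100a10) for IL-2 and between 0.01 (S100a11) and 0.44 (S100a10) for FP, and all their groups overlapped. Thus 1 of 9 genes was called against PBS with each agent, all higher, while the whole table had 14.2% of genes called with IL-2 (8.39% higher) and 6.67% with FP (4.39% higher). Groups that did not overlap, with the treated group higher, made up 13.8% of all genes for IL-2 and 9.94% for FP.

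The same gene stood out in vitro. Vim measured 173, 184 and 180 CPM in the PBS libraries and 545, 535 and 519 CPM in the IL-2 libraries, a log2 difference of 1.58 ± 0.04 (edgeR adjusted p = 5.92e-22). It was the 1 called gene of the 9, where 13.9% of all genes were called (7.4% higher), and it did not overlap, as did 15.9% of all genes in that direction. Of the other 8 genes, 7 overlapped, with log2 differences between -0.16 (Anxa1) and 0.11 (Lgals3). Anxa2, whose product binds membranes and S100A10, was lower in all 3 IL-2 libraries, at 28, 27.7 and 27.9 CPM against 32.3, 31.7 and 31.6 CPM. Its log2 difference was -0.19 ± 0.06 (edgeR adjusted p = 0.0223), which was not called, and 15.7% of all genes had groups apart in that direction. The common coefficient of variation between libraries of a group, as fitted by edgeR, was 4.48% in vitro, against 11.2% to 40.7% in the other tables. The in-vitro p-values cover that small spread, which may be technical.

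No difference between FP and IL-2 passed the test for the 9 genes at 1.5 h. In this tested contrast, edgeR called 0 of the 9 and 0% of all genes. An unadjusted p under 0.05 was reached by 0 of the 9 and by 5.83% of all genes, and DESeq2 called 0. Vim was 0.20 lower with FP on the log2 scale, with a 95% interval from -0.45 to 0.06. Differences for the other genes lay between -0.16 (S100a4, interval -0.86 to 0.55) and 0.06 (Anxa2, interval -0.32 to 0.44), so differences of the size seen for Vim against PBS lay outside these intervals.

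At 4 h the libraries within each group were spread widely. Vim measured 366, 258 and 208 CPM with PBS, 1302, 792, 669 and 504 with IL-2, and 1218, 1037 and 686 with FP. Both treated groups stood wholly above PBS for Vim, as did 8.69% of all genes with IL-2 and 10.9% with FP. The log2 difference was 1.56 ± 0.36 for IL-2 (edgeR adjusted p = 0.052) and 1.82 ± 0.38 for FP (adjusted p = 0.0268), so neither was called by edgeR. With IL-2, 0 of the 9 were called (0.652% of all genes), 1 had an unadjusted p under 0.05 (14% of all genes) and DESeq2 called 1. With FP, 0 of 9 were called (0.913% of all genes), 1 had an unadjusted p under 0.05 (17.6% of all genes) and DESeq2 called 1. Same-numbered PBS and IL-2 libraries varied together, and with the replicate number as a block the Vim difference for IL-2 was 1.58 with an adjusted p of 0.00043. With the block, the Vim difference for FP was 1.82 with an edgeR adjusted p of 0.000121. Same-numbered PBS and FP libraries did not all vary together (correlations 0.0913 to 0.818), so the block is less apt for FP. The 2 libraries whose title and injected molecule disagree have column names that go with the title. Added under the title, they gave Vim differences of 1.79 for FP (edgeR adjusted p = 0.00414) and 1.64 for IL-2 (adjusted p = 0.00889). Added under the molecule, they gave 1.04 for FP (edgeR adjusted p = 0.758) and 1.09 for IL-2 (adjusted p = 0.93). Among all genes, 596 were called for FP and 379 for IL-2 under the title, and 0 for either under the molecule.

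The column names of the 4 h table carry a tag that some libraries share. The FP and IL-2 libraries numbered 1, the only ones with the tag Treg, were highest in their groups for S100a4, S100a6, S100a10, S100a11, Anxa2 and Lgals1, and no PBS library carries that tag. Among the IL-2 libraries, Lgals3 was highest in number 4 (6.25 CPM against 5 in number 1) and Anxa1 in number 3. S100a10 measured 471, 370 and 96.8 CPM in the FP libraries, 395, 136, 109 and 89.4 in the IL-2 libraries and 231, 167 and 84.4 in the PBS libraries. The groups overlapped. Between libraries of the same tag, Vim was higher with treatment in all 4 pairs, by 1.50 and 1.72 with FP and by 1.62 and 1.27 with IL-2 on the log2 scale. Over the 8 other genes the median same-tag difference was 0.38 and 0.20 for the 2 FP libraries and -0.02 and 0.10 for the 2 IL-2 libraries. With the tag as a factor, a fit chosen after seeing the data, none of these 8 genes was called by edgeR in any of the 3 comparisons at 4 h. Their differences from PBS then lay between 0.05 (S100a11) and 0.47 (Lgals1) with FP and between -0.57 (Anxa1) and 0.22 (Anxa2) with IL-2. What the tag stands for is not given in the sources used here.

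FP against IL-2 at 4 h gave 0 called of 9 by edgeR (0% of all genes), 0 with an unadjusted p under 0.05 (2.73% of all genes) and 0 by DESeq2. The log2 differences lay between 0.26 (Vim, 95% interval -0.49 to 1.02) and 1.03 (S100a4, interval -0.12 to 2.18). The upper bounds of the 9 intervals ran from 1.02 to 2.18, so a difference of 1 log2 unit lay within each interval.

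At 16 h Vim stood near the PBS level with IL-2 and above it with FP. It measured 261, 259, 396 and 229 CPM with PBS, 329, 293, 334 and 318 with IL-2, and 949, 837, 942 and 934 with FP. The IL-2 libraries fell within the PBS range and the FP libraries lay far above both. Against IL-2, Vim was 1.52 ± 0.13 higher with FP on the log2 scale (95% interval 1.25 to 1.79, edgeR adjusted p = 9.59e-08). Whether the IL-2 difference itself changed between 1.5 h and 16 h was not tested, since the times are in separate tables.

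Lgals1, the secreted galectin-1 gene, measured 39.7, 44.4, 77.7 and 70.8 CPM with PBS, 47.6, 55.3, 61.8 and 55.3 with IL-2 and 111, 89.7, 85.4 and 109 with FP at 16 h. Anxa2 measured 17.8, 19.2, 28.4 and 19.3 CPM with PBS, 21.3, 25.3, 25.4 and 23.8 with IL-2 and 35.5, 35.5, 34 and 39 with FP. For both genes every FP library exceeded every library of the other groups. Lgals1 rose by 0.85 ± 0.17 (edgeR adjusted p = 0.000733) and Anxa2 by 0.59 ± 0.12 (adjusted p = 0.000881) on the log2 scale with FP against IL-2. S100a6 was 0.63 ± 0.23 higher, with 47.7, 37.3, 42.1 and 52.2 CPM against 19.9, 25.2, 36.7 and 34.4 CPM, and was not called (adjusted p = 0.0318).

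In the tested contrast of FP with IL-2 at 16 h, 3 of the 9 genes were thus called, all higher, and 4 had groups apart. Among all genes 31.8% were called, 16.8% were called higher and 24% had the FP group wholly above. The remaining 5 genes had log2 differences between -0.24 (Lgals3) and 0.11 (S100a4) with overlapping groups. Read against that share, a count of 3 in 9 says little about these genes as a set. Division genes moved in the same direction in this contrast, with 12 of 15 called higher (summed level 1079 ± 37.7 CPM with FP and 316 ± 51.1 with IL-2, n = 4 each), and 3 of 15 macrophage markers were called lower (520 ± 178 against 806 ± 196 CPM), as were 3 of 5 dendritic cell markers. Among all genes 14.9% were called lower in this contrast, and the part of these lists in the result was not tested. The fitted differences from PBS, which share the FP libraries, were 1.68 ± 0.13 for Vim, 0.77 ± 0.12 for Anxa2 and 0.76 ± 0.17 for Lgals1. The same 3 genes were called against PBS, where 28.8% of all genes were called (14.4% higher) and 17% had the FP group wholly above. IL-2 against PBS at 16 h gave 0 called of 9 by edgeR (0.35% of all genes), 0 with an unadjusted p under 0.05 (11.6% of all genes) and 0 by DESeq2.

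**Figure D2:**
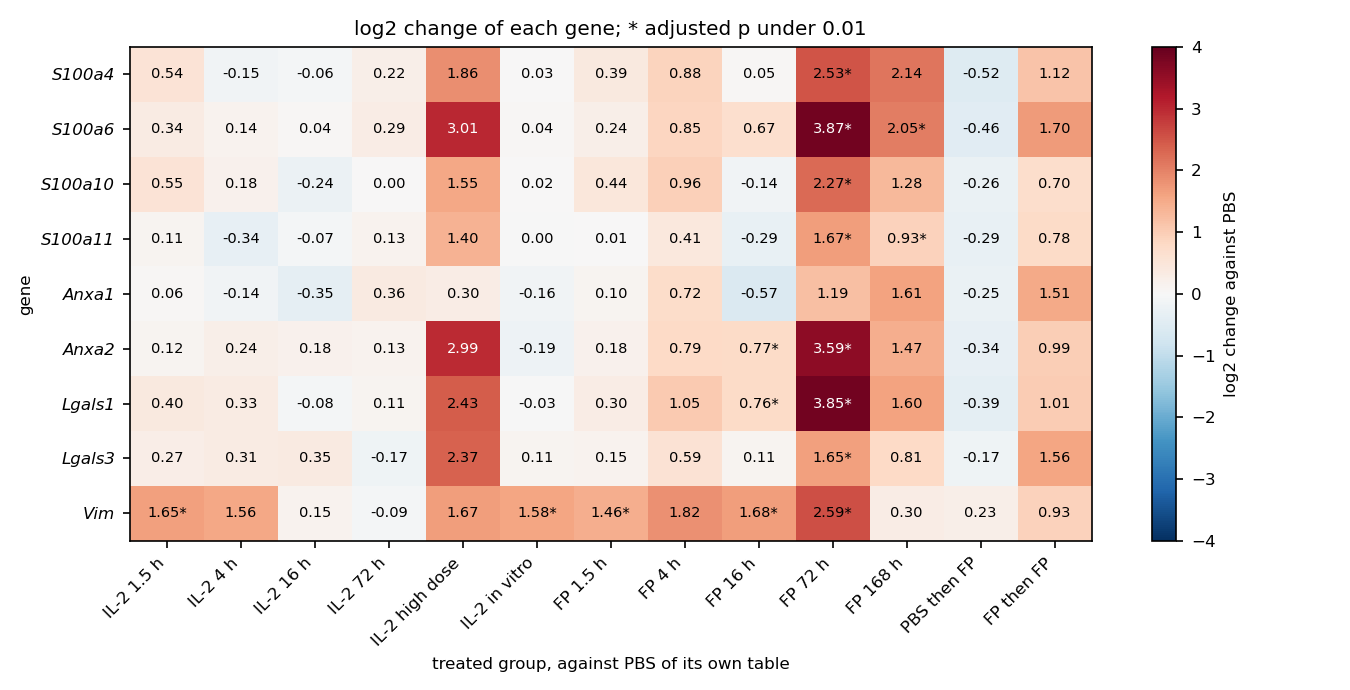
Fitted log2 difference from PBS of each gene (rows) in each of the 13 comparisons with PBS (columns), as colour and printed value. Vim is the high row in the early and in-vitro columns, and the FP column at 72 h and the high-dose column are high for every gene but Anxa1.

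At 72 h, 8 of the 9 genes were several-fold higher in FP libraries, and no difference of the IL-2 libraries from PBS passed the test. S100a6, a calcium sensor linked to dividing and moving cells, measured 31.2, 17.1 and 19.7 CPM with PBS, 40, 25.4 and 17.8 with IL-2 and 372, 416, 277 and 260 with FP. Lgals1 measured 51.5, 38.9 and 39 CPM with PBS, 63.9, 46 and 30.2 with IL-2 and 879, 843, 413 and 342 with FP. All FP libraries lay far above the other groups, and for Lgals1 the FP libraries themselves split into a higher pair (1 and 2) and a lower pair (3 and 4). Against PBS the log2 differences were 3.87 ± 0.31 for S100a6 and 3.85 ± 0.38 for Lgals1, the largest of the 9.

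Anxa2 and S100a10 encode the 2 proteins of one membrane complex. Anxa2 measured 22.9, 18.4 and 17.1 CPM with PBS, 26.2, 20.5 and 17.2 with IL-2 and 260, 318, 189 and 167 with FP. S100a10 measured 169, 122 and 121 CPM with PBS, 176, 133 and 104 with IL-2 and 869, 937, 407 and 430 with FP. Both sets of FP libraries stood clear of the rest, and Anxa2, with its lower starting level, showed the larger log2 difference from PBS, 3.59 ± 0.24 against 2.27 ± 0.31. The difference between the changes of the 2 genes was not tested.

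S100a4, whose product binds non-muscle myosin, measured 12.6, 6.66 and 7.66 CPM with PBS, 15.9, 8.28 and 7.17 with IL-2 and 68.3, 65.3, 29.5 and 43.6 with FP. S100a11, whose product binds annexin A1, measured 27.6, 18.4 and 20.1 CPM with PBS, 29.2, 23.2 and 20 with IL-2 and 89.2, 76.8, 53.3 and 61.6 with FP. The FP groups were again wholly above, and the log2 differences from PBS were 2.53 ± 0.36 and 1.67 ± 0.20. Vim measured 336, 264 and 244 CPM with PBS, 318, 270 and 206 with IL-2 and 2061, 1870, 1636 and 1199 with FP, a log2 difference from PBS of 2.59 ± 0.21. Lgals3, the galectin that macrophages also make, measured 6.76, 11 and 7.54 CPM with PBS, 8.62, 7.82 and 6.10 with IL-2 and 34.8, 34.8, 16.5 and 19.9 with FP, a difference of 1.65 ± 0.28. Summed macrophage markers were lower in the FP libraries of this table, and their part in the Lgals3 difference was not tested. Anxa1 measured 1.90, 0.720 and 1.52 CPM with PBS and 3.44, 4.53, 1.59 and 2.94 CPM with FP, and these groups overlapped (log2 difference 1.19 ± 0.49).

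The tested contrast of FP with IL-2 at 72 h called 8 of the 9 genes, all higher and all with groups apart. Among all genes 30.8% were called, 17.9% were called higher and 24.7% had the FP group wholly above. The increases were 3.73 ± 0.38 for Lgals1 (edgeR adjusted p = 1.24e-05), 3.58 ± 0.30 for S100a6 (adjusted p = 2.96e-06), 3.46 ± 0.24 for Anxa2 (adjusted p = 4.96e-07) and 2.68 ± 0.21 for Vim (adjusted p = 1.61e-06). Smaller increases passed for S100a4 (2.31 ± 0.35), S100a10 (2.26 ± 0.31), Lgals3 (1.82 ± 0.28) and S100a11 (1.54 ± 0.20). Anxa1 was 0.83 higher with an interval from -0.20 to 1.86 and was not called (adjusted p = 0.17). The median over the 9 genes was 2.31, while the median of all genes was -0.06.

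Against PBS the same 8 genes were called at 72 h and did not overlap, where 30.4% of all genes were called (17.3% higher) and 23.8% had the FP group wholly above. The 2 contrasts share the FP libraries. IL-2 against PBS at 72 h gave 0 called of 9 by edgeR (0% of all genes), 0 with an unadjusted p under 0.05 (0.44% of all genes) and 0 by DESeq2, with log2 differences between -0.17 (Lgals3) and 0.36 (Anxa1). Per kilobase of exon, Lgals1 had the highest mean level of the 9 in the FP libraries at 72 h, 686 ± 311 CPM per kb (SD, n = 4), followed by S100a10 at 545 ± 232.3, and their ranges overlapped. Vim followed at 357 ± 78.3 and S100a6 at 242 ± 54.6 CPM per kb, while Anxa1 stayed last at 1.07 CPM per kb.

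**Figure D3:**
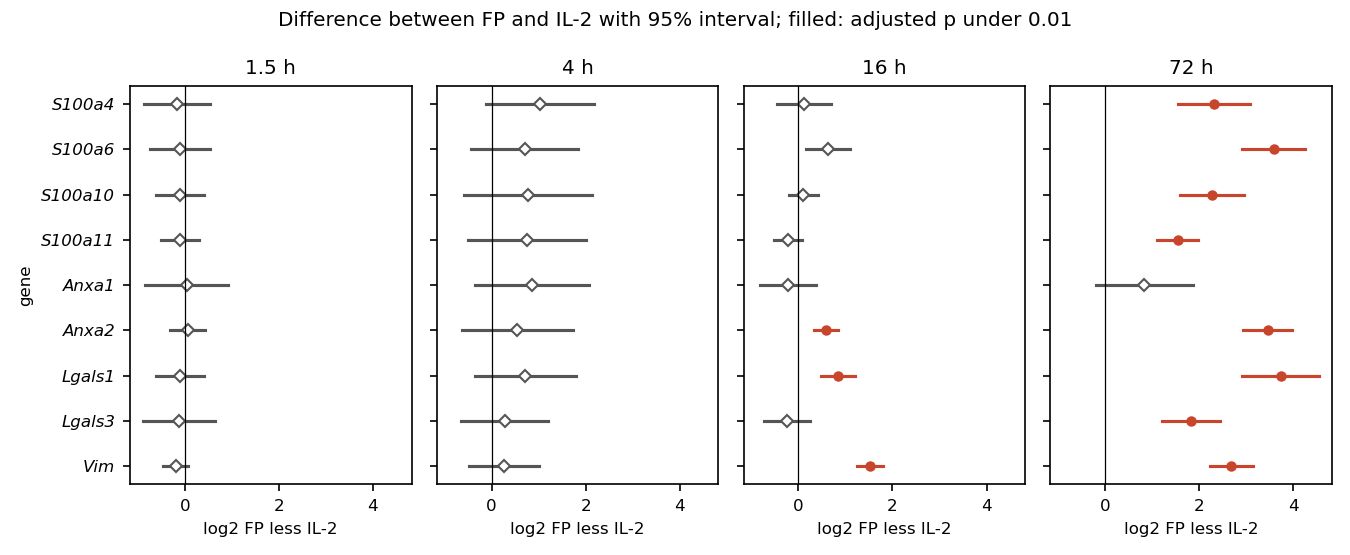
Fitted log2 difference of FP less IL-2 for each gene at 1.5, 4, 16 and 72 h, with 95% intervals. The intervals include 0 for every gene at 1.5 h and 4 h, while at 72 h the interval of Anxa1 alone includes it.

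Division genes were high in the same FP libraries at 72 h. All 15 genes of a list of replication and mitosis genes rose with FP against IL-2 (median log2 difference 4.69), and their summed level was 3482 ± 832 CPM (n = 4) with FP against 193 ± 25.2 (n = 3) with IL-2 and 207 ± 29.2 (n = 3) with PBS. Macrophage and monocyte markers moved the other way, with 14 of 16 lower against IL-2 (median -3.04), and 5 of 6 dendritic cell markers were lower too. Among all genes 17.9% were called higher and 12.9% lower in this contrast. The sums of the macrophage and monocyte markers in the 4 FP libraries ranged from 49.3 to 136 CPM, against 431 to 1038 CPM with PBS, and at most 1 of the 16 markers was at 0 in a library. The part of either in the levels of the 9 genes was not tested.

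Other members of the same families were counted in the same contrasts. Of 5 other S100 genes tested, 2 rose with FP against PBS at 72 h and none fell. S100a13, which lies in the same cluster as S100a4 and S100a6, rose from 12.6 to 60.9 CPM, by 2.27 ± 0.32. Of 7 other annexins, 5 rose and 1 fell, with Anxa6, which encodes a large annexin, rising from 343 to 784 CPM (1.19 ± 0.14). Of 7 other galectin genes, 4 rose and 1 fell, and among them Lgals9, the gene of galectin-9, rose by 0.88 on the log2 scale. Of 5 other intermediate filament genes, the lamin genes Lmnb1 and Lmnb2 rose, by 2.39 and 0.79. The share of all genes was 17.3% higher and 13.1% lower, and whether these families differed from the 9 genes was not tested. The counts against IL-2 were the same for these 4 families: 2 of 5, 5 of 7, 4 of 7 and 2 of 5 rose. In that contrast 17.9% of all genes were called higher.

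Genes of the actin cytoskeleton, with which S100A4, annexin A2 and vimentin interact, mostly rose. Of 30 tested, 26 rose and 1 fell with FP against IL-2 at 72 h (median 0.93), where 17.9% of all genes were called higher and 12.9% lower. Against PBS 25 rose and 1 fell (median 0.92), where 17.3% of all genes were called higher and 13.1% lower. Actg1, which encodes cytoplasmic gamma-actin, rose by 1.69 against PBS. Tagln2, the gene of an actin-bundling protein, rose by 1.79, and Capg, the gene of an actin-capping protein, by 1.63. The 1 that fell, Actn1, an alpha-actinin gene named after its value was seen, dropped by 0.91. Among 25 genes of binding partners and receptors of the 9 proteins, 10 rose and 4 fell against PBS (median 0.38). The share of all genes in that contrast was 17.3% higher and 13.1% lower. The 4 that fell were Dysf, Fpr1, Fpr2 and Tlr4, named after their values were seen. Capn2, a calcium-dependent protease gene, rose by 1.33 and Spn, which encodes the T cell surface glycoprotein CD43, by 0.83.

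At 168 h S100a6 and S100a11 were called higher with FP than with PBS. S100a6 measured 29.4, 19.3 and 19.5 CPM with PBS and 167, 78.7, 65.9 and 66.3 CPM with FP, a log2 difference of 2.05 ± 0.33 (edgeR adjusted p = 0.00669). S100a11 measured 28, 22.4 and 22.2 CPM with PBS and 58.3, 41.8, 43.6 and 41 with FP, a difference of 0.93 ± 0.15 (adjusted p = 0.00705). These were the 2 called genes, both higher, where 1.21% of all genes were called and 0.201% were called higher. S100a4 measured 12.4, 10.8 and 7.35 CPM with PBS and 83.8, 39.2, 17.4 and 39.3 with FP, and at 2.14 ± 0.43 it was not called (adjusted p = 0.0272). S100a10 was not called either (1.28 ± 0.32, adjusted p = 0.0771), and its groups overlapped. Library 1 of the FP group was the highest for all 9 genes, and without it S100a6 stood 1.62 (adjusted p = 0.000601) and S100a11 0.80 (adjusted p = 0.00951) above PBS on the log2 scale. Without FP library 2 or without any 1 of the 3 PBS libraries, 0 of the 9 were called.

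Anxa1, near the limit of detection elsewhere, had its highest group mean here, with 1.60, 1.41 and 2.11 CPM with PBS and 8.03, 4.18, 3.60 and 5.13 CPM with FP (log2 difference 1.61 ± 0.33, edgeR adjusted p = 0.0277). Lgals1 measured 57, 38.7 and 38 CPM with PBS and 239, 123, 63.4 and 116 CPM with FP (1.60 ± 0.36, adjusted p = 0.0465). Neither was called, although every FP library lay above every PBS library. Vim was nearly back, at 331, 391 and 322 CPM with PBS and 581, 414, 344 and 373 CPM with FP (0.30 ± 0.17, adjusted p = 0.444), and its groups overlapped. In all, 7 of the 9 genes had groups apart (6.69% of all genes had the FP group wholly above) and 8 had an unadjusted p under 0.05 (14.8% of all genes). None of the 15 division genes was called at 168 h (median 0.06), where 1.21% of all genes were called. Their sums were 234 ± 55.5 CPM (n = 4) with FP and 182 ± 14.7 (n = 3) with PBS. Of 21 effector Treg genes, 6 were called higher, where 0.201% of all genes were called higher. Among the 6 were Klrg1, an inhibitory receptor gene (23.5 to 115 CPM), and Il10, a suppressive cytokine gene (5.64 to 28.8 CPM). Macrophage marker sums were lower with FP at this time too, between 53.6 and 79 CPM in the FP libraries, and their part was not tested.

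With high-dose IL-2, 8 of the 9 genes were higher than PBS in every library. S100a6 measured 20.9, 15.2 and 25.7 CPM with PBS and 129, 228 and 142 CPM with IL-2, and Anxa2 19.6, 14 and 25 CPM with PBS and 134, 192 and 139 CPM with IL-2. Lgals1 measured 49.2, 35.8 and 63.9 CPM with PBS and 217, 349 and 235 CPM with IL-2. Each IL-2 library exceeded each PBS library for 8 of the 9 genes (9.61% of all genes had the IL-2 group wholly above), Anxa1 being the exception. The log2 differences were 3.01 ± 0.32 for S100a6 (edgeR adjusted p = 0.0116), 2.99 ± 0.28 for Anxa2 (adjusted p = 0.0109) and 2.43 ± 0.30 for Lgals1 (adjusted p = 0.0158). For the rest they lay between 0.30 (Anxa1) and 2.37 (Lgals3). By edgeR 0 of the 9 and 0% of all genes were called. An unadjusted p under 0.05 was reached by 8 of the 9 genes and 16.5% of all genes, and DESeq2 called 8. Macrophage marker sums were close in this table, at 132 ± 13.6 CPM with PBS and 116 ± 8.31 with IL-2 (n = 3 each). Division genes summed to 162 ± 21.9 CPM with PBS and 1106 ± 454 with IL-2, and none of the 15 was called by edgeR.

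**Figure D4:**
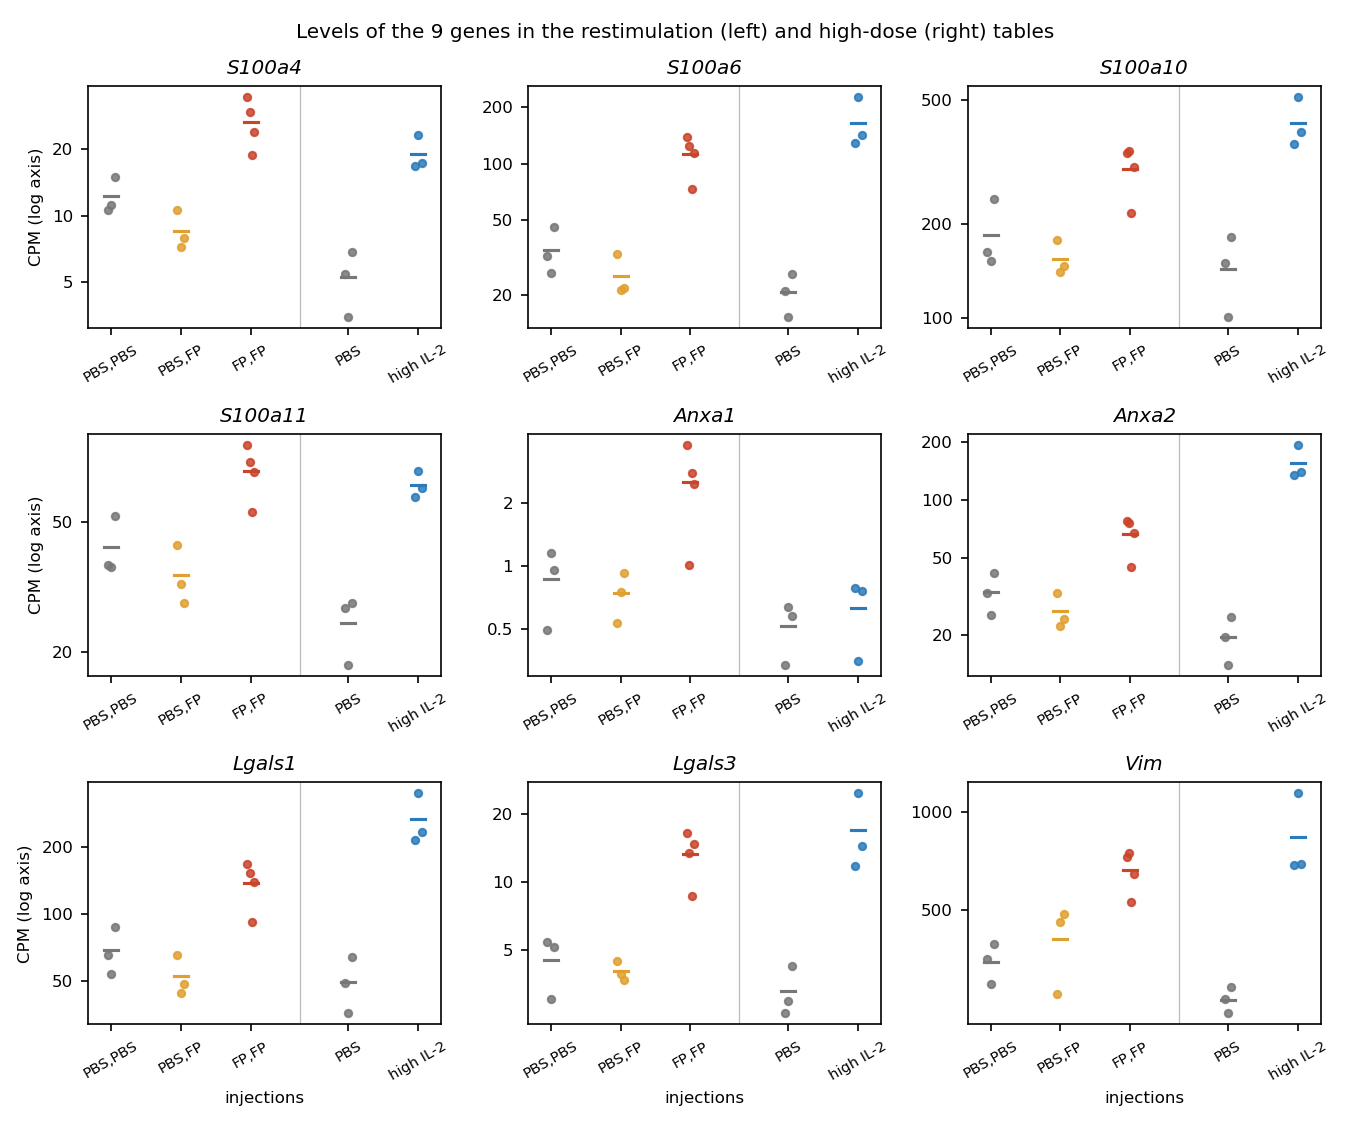
Level of each gene in every library of the restimulation and high-dose tables, in CPM on a log axis. The restimulation groups are on the left (PBS then PBS, PBS then FP and FP then FP). The high-dose groups, PBS and IL-2, are on the right. Points are libraries and bars are group means; for all 9 genes the libraries of the repeated injection lie above those of the single injection.

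In the restimulation table the 9 genes were higher after a repeated injection of FP than after a single one. S100a6 measured 32.9, 21.1 and 21.7 CPM after the single injection and 139, 125, 73.5 and 114 after the repeated one. S100a4 measured 10.6, 7.23 and 7.91 CPM after the single injection and 34.6, 29.5, 18.9 and 24 after the repeated one. The groups did not overlap for either gene. The log2 differences in this tested contrast were 2.16 ± 0.28 for S100a6 (edgeR adjusted p = 0.00499) and 1.64 ± 0.24 for S100a4 (adjusted p = 0.00776). Both groups also entered the differences from PBS behind the choice of the genes, so the contrast is not independent of it. These 2 of the 9 were called, both higher, where 0.585% of all genes were called and 0.44% were called higher. In this table FP libraries 2 and 4, single-injection library 1 and PBS library 3 deviated together from their group means (correlations 0.612 to 0.828 between groups). They had the most counts, and mitochondrial genes gave 0.393% to 0.646% of these, against 0.953% to 1.07% in the other libraries. The part of this split in the differences was not tested.

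Lgals3 measured 4.47, 3.92 and 3.68 CPM after the single injection and 16.5, 13.5, 8.70 and 14.8 after the repeated one, and at 1.73 ± 0.27 it narrowly missed (edgeR adjusted p = 0.0106). Lgals1 (1.40 ± 0.24, adjusted p = 0.0185) and Anxa2 (1.33 ± 0.24, adjusted p = 0.0211) were not called, nor were Anxa1, S100a11, S100a10 and Vim, with differences between 0.70 (Vim) and 1.76 (Anxa1). All 9 genes had groups apart, with the repeated injection higher, as did 8.24% of all genes. Leaving out any 1 library other than FP library 3 took the count of called genes to 0 (the PBS libraries were not left out in this contrast), and without FP library 3 it was 5. Division genes did not move with them (median -0.06, 0 of 15 called, against 0.585% of all genes). Of 13 macrophage markers 1 was called lower, as were 0.145% of all genes. The markers summed to 218 ± 7.96 CPM (n = 3) after the single and 88 ± 26 CPM (n = 4) after the repeated injection. The part of either list was not tested.

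Against PBS then PBS, no difference after the single injection passed the test. The fitted difference was below 0 for 8 of the 9 genes and above 0 for Vim. S100a4 measured 10.7, 11.2 and 15 CPM in those controls, all above the 3 libraries of the single injection (log2 difference -0.52 ± 0.24, edgeR adjusted p = 0.585), and 8.38% of all genes had groups apart in that direction. Here 0 of the 9 were called by edgeR (0.0111% of all genes), 0 had an unadjusted p under 0.05 (8.96% of all genes) and DESeq2 called 0. Vim, the gene with the early increase at 1.5 h, measured 352, 296 and 393 CPM in the controls and 276, 459 and 485 CPM after the single injection. These overlapped, and the difference of 0.23 ± 0.22 has a 95% interval from -0.26 to 0.72, below the 1.46 fitted at 1.5 h in the other table. The repeated injection gave log2 differences from PBS between 0.70 (S100a10) and 1.70 (S100a6), with 7 of the 9 wholly above (7.65% of all genes). By edgeR 0 of the 9 were called (0.629% of all genes), all 9 had an unadjusted p under 0.05 (21.7% of all genes) and DESeq2 called 6.

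Set side by side over the tables, S100a6 had its highest levels with FP at 72 h (260 to 416 CPM), then with high-dose IL-2 (129 to 228), repeated FP (73.5 to 139) and FP at 168 h (65.9 to 167), and the ranges of neighbours in this order overlap after the first. In every other group its libraries lay at or below 56.5 CPM. Vim had another order, since the FP group at 72 h (1199 to 2061 CPM) was followed by FP at 4 h (686 to 1218) and FP at 16 h (837 to 949), with overlapping ranges between neighbours. The tables were scaled separately, so this order is descriptive.

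Over the 47 treated libraries, each taken as log2 CPM less the PBS mean of its table, 8 of the 9 genes followed the mean of the others more closely than Vim did. Pearson's r with that mean was 0.97 for S100a6 and for Lgals1, 0.95 for S100a10 and S100a4, 0.94 for Anxa2, 0.91 for S100a11, 0.78 for Lgals3, 0.61 for Anxa1 and 0.46 for Vim. The ranking covered 9650 genes, which include those of the 9 that passed its level filter. Outside the 9, the patterns most like their mean were those of Crip1 (r = 0.963), Glrx (0.935), Ctla2a (0.927), Thy1 (0.92) and Gna15 (0.92). S100a13, Ifi27l2a, Arpc3, Clic1 and Tagln2 followed (0.915 to 0.918). These points share treatments, PBS means and sequencing depth within a table, so the coefficients are descriptive.

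The genes also varied together within groups. In the deviations of 73 libraries from their group means, r between a gene and the mean of the other 8 was 0.95 for Lgals1, 0.93 for S100a6, 0.92 for S100a10, 0.89 for S100a4, 0.87 for Anxa2, 0.82 for S100a11, 0.71 for Vim, 0.52 for Anxa1 and 0.51 for Lgals3. The mean of the 9 genes deviated together with the summed actin cytoskeleton list (r = 0.86) and the effector Treg list (0.76), with CD8 T and NK cell markers (0.72), the division list (0.58) and T cell and Treg markers (0.43), and little with macrophage markers (0.24). Lgals3 alone of the 9 went with the macrophage markers (r = 0.72, the other 8 between -0.01 and 0.22). The points of a group share its libraries, and composition within a group, CD8 T and NK cells included, was not tested as a source of these deviations. Group levels of the CD8 T and NK cell markers are not given here, and their part in the differences between groups was not tested.

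**Figure D5:**
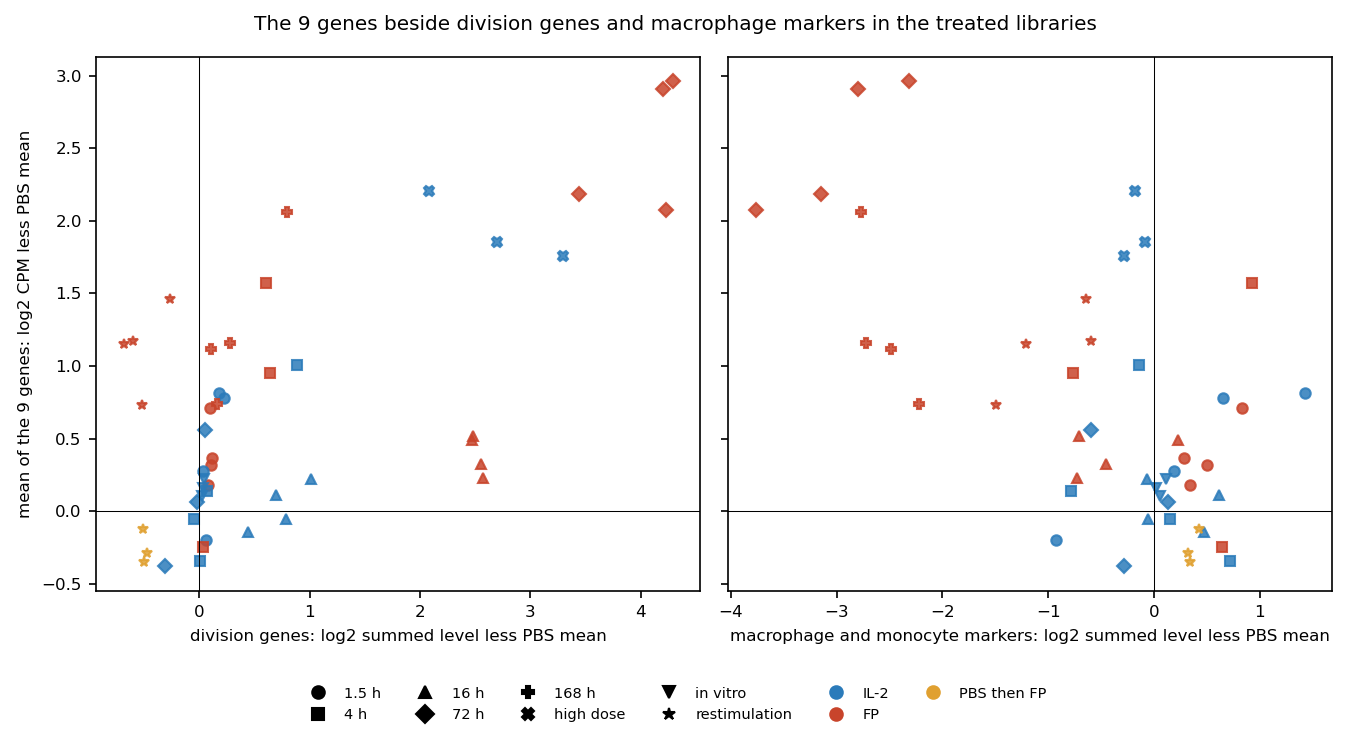
Mean of the 9 genes in each treated library against the summed level of division genes (left) and of macrophage and monocyte markers (right), all as log2 less the PBS mean of the same table. Symbols mark the table and colours the treatment. The 4 FP libraries at 168 h and the 4 of the repeated injection are above 0 on the vertical axis. Division sums are near or below PBS for the repeated injection, and on average somewhat above PBS at 168 h.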

How the data were processed

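Gene counts for 91 samples were deposited in 8 tables. The authors deposited unnormalized read counts per Ensembl gene, made with STAR 2.5.0 and featureCounts 1.5.0 on GRCm38 per the submitters' processing notes. Each deposited table holds only genes above 0.5 CPM in at least 3 columns, as tested on the files. Whether counting used strand is not stated in the sources used here. Repeat runs of 1 library (16 second runs) were summed, which left 75 libraries, 73 of them with a group, and 12212262 to 46108114 counts each.

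Each table was fitted whole with edgeR 4.0.16 in R 4.3.3: filterByExpr, TMM scaling, 1 mean per group, the 2-sided quasi-likelihood F test and Benjamini-Hochberg adjustment over all genes tested. A gene is called at an adjusted p under 0.01. Standard errors were derived from the log2 fold change and its F statistic, and intervals cover 95%. Levels are CPM with TMM scaling, as mean ± SD over libraries, and log2 CPM used a prior count of 2. DESeq2 1.42.0, other size factors, no filter, the replicate number as a block, the compared groups alone, lane and left-out libraries were the alternatives, and the 4 h libraries were also grouped by title or by injected molecule. The fit was tested on simulated data. Exon lengths and gene positions came from a GENCODE annotation of GRCm38, and promoter windows from RefSeq on GRCm38.p6.

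Same-numbered libraries deviated together (every correlation over 0.1) in 3 of 18 comparisons: IL-2 against PBS at 4 h (0.45 to 0.902) and at 72 h (0.453 to 0.615), and FP against IL-2 at 72 h (0.159 to 0.262). The numbers come from the titles.

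The 9 genes and all gene lists were chosen with earlier results of these data known. Besides the 9, the rule names up to 4 called genes of each list with the smallest p and a mean of at least 5 CPM in a group, the 10 genes most like the mean of the 9, and Foxp3, Mki67 and Gzmb.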

Additional observations from a re-analysis of the deposited data

Results flagged for a closer look

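Among 90 combinations of a gene and a group of 4 libraries (10 groups), 12 had 1 library far from the other 3 by Dixon's criterion, which chance alone gives in about 1 of 20. FP library 1 at 168 h stood apart for S100a6 (167 CPM), Anxa2 (76.15 CPM), S100a11 (58.31 CPM) and Lgals3 (15.43 CPM), each time as the highest of its group. IL-2 library 1 at 4 h stood apart as the highest for S100a10 (394.6 CPM), Lgals1 (85.24 CPM) and S100a4 (10.69 CPM). PBS library 3 at 16 h stood apart as the highest for S100a6 (46.05 CPM) and Anxa2 (28.36 CPM). The remaining cases were S100a4 in FP library 3 at 1.5 h (16.42 CPM, high), Anxa1 in IL-2 library 3 at 16 h (1.568 CPM, high) and Vim in FP library 2 at 16 h (836.5 CPM, low).

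For Anxa2, every in-vitro IL-2 library lay below its PBS libraries (log2 difference -0.1921) and every high-dose IL-2 library lay above its own (2.987). For S100a4, every library of the single FP injection in the restimulation table lay below the controls (-0.5174), while every FP library at 72 h lay above PBS (2.529). These pairs of comparisons come from separate tables, and the difference within each pair was not tested.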

How the results depend on the processing

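Of 226 alternative settings of the 18 counts of called genes, 197 left the count within its range, and 6 counts moved. The counts for FP at 72 h, against PBS and against IL-2, were 8 in every setting run, and at 16 h they were 3 or 4. At 4 h, both counts against PBS went from 0 to 1 (Vim) with the replicate block, with DESeq2, when libraries were grouped by title and with the column tag as a factor, which was chosen after seeing the data. Grouped by injected molecule, the Vim difference of FP less IL-2 at 4 h reversed to -0.0485 and those from PBS fell from 1.82 to 1.04 with FP (adjusted p = 0.758) and from 1.56 to 1.09 with IL-2 (adjusted p = 0.93). In that grouping 0 of all genes were called at 4 h. With lane as a covariate Vim had an adjusted p of 0.191 with FP and 0.0801 with IL-2. At 168 h the count of 2 became 6 with the replicate block and 5 with DESeq2, and from 0 to 5 with a library left out (0 without FP 2 or any PBS library, 1 without FP 4, 5 without FP 3). For high-dose IL-2 DESeq2 gave 8 in place of 0. For the repeated injection against PBS it gave 6 in place of 0, and leaving out a library gave 0 to 2 (2 without FP 3). For repeated against single injection the count of 2 became 0 with the replicate block, 8 with DESeq2, 1 with the compared groups alone and 0 to 5 with a library left out (5 without FP 3). There the numbers do not pair the libraries (correlations -0.458 to 0.718), as in most comparisons, so a call lost under the block is not a weaker effect. Likewise a call gained under the block for FP at 4 h or at 168 h is not a stronger effect. The block changed no other count by more than 1 gene.

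With a library left out, the small log2 differences of FP less IL-2 at 1.5 h changed sign for Anxa1 (-0.25 to 0.514), Anxa2 (-0.0195 to 0.125), Lgals1 (-0.285 to 0.0961), Lgals3 (-0.332 to 0.168), S100a10 (-0.276 to 0.136), S100a4 (-0.396 to 0.182) and S100a6 (-0.347 to 0.108). The same held for Anxa1 at 16 h (-0.364 to 0.000778) and Lgals3 at 4 h (-0.213 to 0.587). The cause of these shifts was not tested. Groups of 3 or 4 libraries and the low counts of Anxa1 (down to 10 in a PBS library) limit the precision.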

Other observations

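Several relatives of the 9 genes also changed with FP against IL-2 at 72 h. Lgals7, an epithelial galectin gene, rose from 0.637 to 10.6 CPM (log2 difference 4.06 ± 0.39, edgeR adjusted p = 8.38e-06). Lgals3bp, whose product binds galectin-3, rose from 70.4 to 150.1 CPM (1.09 ± 0.10). Anxa4 rose from 6.05 to 14.6 CPM (1.27 ± 0.14), Anxa5, a phosphatidylserine binder, from 38.7 to 63.9 CPM (0.72 ± 0.15), and Lmnb1, the lamin B1 gene, from 48.8 to 249.6 CPM (2.35 ± 0.15). Lgals8 did not pass at 72 h (-0.12 ± 0.09) and fell by 0.46 at 16 h, from 84.5 to 61.2 CPM.

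Of 11 genes of resting T cells, 6 fell and none rose with FP against IL-2 at 72 h, where 12.9% of all genes were called lower and 17.9% higher. Il7r, the IL-7 receptor gene, fell from 192.7 to 78.8 CPM (-1.29 ± 0.15), and Tcf7, a transcription factor gene of naive and memory cells, from 454 to 241 CPM (-0.91 ± 0.12). Il2ra, which encodes CD25, rose from 559 to 2031 CPM (1.86 ± 0.14), while Foxp3 measured 492 and 569.5 CPM (0.21 ± 0.10, adjusted p = 0.0894).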
